A study of Mus musculus with 6 samples.

Results

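To see how far chromatin had been remodelled by the middle of reprogramming, fibroblasts were compared with the SSEA1-positive cells that they had become at days 8, 9 and 10. The members were the regions on chromosomes 1 to 19, which were 218231 of the 223596 regions of the series, in 4 of its 6 libraries. A region was counted as different only when days 8, 9 and 10 all lay on the same side of MEF day 0. The starting cells were female mouse embryonic fibroblasts (MEFs) of a hybrid cross, in which Musculus females carried GFP on the X chromosome and the males were Castaneus. At passage 1 they had been transduced with a lentivirus (tetO-FUW-OSKM) that carries Oct4, Sox2, Klf4 and c-Myc under doxycycline control and with a second one for the transactivator (FUW-M2rtTA), and they were sorted by FACS for an inactive GFP-bearing X chromosome. MEF day 0 was taken at this sort, without doxycycline. The intermediates came from cells of the same kind plated after the sort and kept with doxycycline, ascorbic acid and LIF in ESC medium. From these cultures GFP-negative cells positive for SSEA1 were isolated. The viruses and the GFP status were therefore common to all 4 libraries, while doxycycline, medium, time in culture and the SSEA1 sort differed together between MEF day 0 and the intermediates and cannot be told apart.

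ATAC-seq counts the fragments that a transposase cuts from open chromatin, so that promoters and enhancers in use gather many reads and packed chromatin gathers few. Fibroblasts and pluripotent cells share most promoters of genes that every cell uses and differ mainly in enhancers. During reprogramming the mesenchymal state of the fibroblast is given up for an epithelial one before the pluripotency network is complete, and the surface antigen SSEA1 marks the minority of cells that have moved on. The reprogramming factors can engage chromatin that is closed in fibroblasts.

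Each time point had 1 library, so that no p-value was computed. Days 8, 9 and 10 are different days and not replicates of one day. Their spread is used here as the yardstick for the difference from MEF day 0, and MEF day 0 itself has no repeat. Regions are named by chromosome and by their row in the deposited table, which gave neither positions nor genes, so that the labelled cell types were not checked against marker genes. The 4 libraries held 26711099 to 32284532 autosomal reads. Values are normalised counts, which are reads divided by the library's size factor as set by the authors, or log2 of the normalised count plus 1. Reads per autosomal region had a median of 20 in MEF day 0 and 50 to 61 in the intermediates, so that low regions were measured with less precision in MEF day 0. The intervals given below reflect counting error alone and treat each read as a separate molecule. Among regions with few reads, even counts were 1.53 times as frequent as odd ones in MEF day 0. In the intermediates they were 1.00 to 1.14 times as frequent. Reads of MEF day 0 may thus not all be independent, and the intervals may be too narrow. The source of this was not tested.

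The change from MEF day 0 was much larger than the drift within the intermediates. The median absolute log2 difference over autosomal regions was 1.69 between MEF day 0 and day 8, 1.65 to day 9 and 1.55 to day 10. Between the intermediates it was 0.37 for days 8 and 9, 0.34 for days 9 and 10 and 0.42 for days 8 and 10. In 170475 regions (78.1%) the mean difference from MEF day 0 exceeded the whole range over the 3 days. All 3 intermediates lay above MEF day 0 in 95014 regions (43.5% of those compared) and below it in 98594 regions (45.2%). In the remaining 24623 regions (11.3%) MEF day 0 lay between the days or equalled one of them. These regions had a median of 24.1 normalised counts in MEF day 0 and 24.3 to 26.2 in the intermediates. They were weaker than all autosomal regions, whose medians were 40.2 in MEF day 0 and 41.1 to 45.2 in the intermediates.

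**Figure D1:**
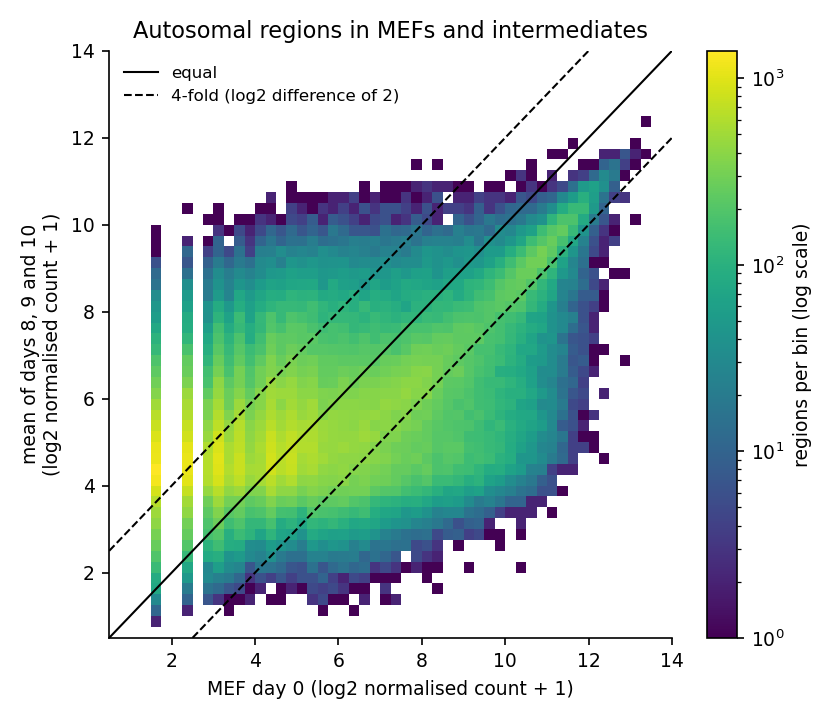
Density of the 218231 autosomal regions by their log2 value in MEF day 0 (horizontal axis) and their mean log2 value over days 8, 9 and 10 (vertical axis), with colour for the number of regions per bin on a log scale. The solid line marks equal values and the dashed lines a 4-fold difference. The cloud spreads far beyond both dashed lines, and the ridge of the strongest regions runs below the solid line, where the 1126 regions strong in all 4 libraries had a median difference of -1.36.

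To single out large changes, a region was said to have gained accessibility when each of the 3 intermediates was at least 4-fold above MEF day 0 on the log2 scale and held at least 50 normalised counts. It was said to have lost accessibility when each was at least 4-fold below MEF day 0, which itself held at least 50 normalised counts. By this rule 20190 regions gained (9.25% of those compared) and 33235 lost (15.2%). The spread between the intermediates in these regions was near that of all regions, whose median range was 0.63 on the log2 scale. The median range over the 3 days was 0.55 on the log2 scale in gained regions, against a median difference from MEF day 0 of 3.38. In lost regions the range was 0.62 and the median difference was -3.30. The regions were chosen for differences of at least 4-fold on each day, so that these contrasts are largely set by the choice. Of the 36994 regions that met the rule for a gain on at least 1 of the 3 days, 54.6% met it on all of them, and of the 48290 with a loss on at least 1 day, 68.8%. The same fold and level between 2 intermediates picked far fewer autosomal regions, and between days 8 and 10 there were 47 gains and 250 losses.

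The regions nearest to the threshold differed little in the smallest of their 3 differences, though not in level. The region in row 158686 on chromosome 5 was just inside, with 38.2 normalised counts in MEF day 0 and 308, 156 and 164 at days 8, 9 and 10. The region in row 181855 on chromosome 7 was just outside, with 70.3 in MEF day 0 and 367, 284 and 374. Among losses, row 10091 on chromosome 1 was just inside with 94.4, 13.6, 22.8 and 15.0 in the same order, and row 3709 on chromosome 1 just outside with 416, 103, 57.1 and 67.9.

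The share of a library's own reads in a set of regions needs no scaling, although the sets themselves were chosen under the authors' size factors. Regions that gained accessibility held 0.740% of the autosomal reads in MEF day 0 (95% Wilson interval 0.736% to 0.743%). They held 20.4% at day 8, 18.9% at day 9 and 16.7% at day 10. Regions that lost accessibility held 41.0% of the reads in MEF day 0 (41.02% to 41.06%) and 7.80% at day 8, 9.08% at day 9 and 9.37% at day 10. The regions were chosen on these libraries, so that the direction of both contrasts is given by the choice and only their size is descriptive. With the regions chosen under equal autosomal sums, lost regions held 21.9% of the reads of MEF day 0 and gained regions 2.04%. Gained regions had a median of 7 reads in MEF day 0 and 203, 217 and 171 reads at days 8, 9 and 10. Lost regions had a median of 212 reads in MEF day 0 and 33, 46 and 42 reads.

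Within the intermediates, gained regions were weaker on later days, and their read share was lower on each later day. The read share of lost regions was higher on each later day, but chosen under equal sums it was 1.97% at day 8, 2.44% at day 9 and 2.43% at day 10. Day 10 was nearer to MEF day 0 than day 8 in 80.3% of gained regions and 61.3% of lost regions, against 60.7% of all autosomal regions, so that the lost regions were close to this background. With equal autosomal sums the shares were 73.2%, 69.1% and 59.2%. The median difference from MEF day 0 in gained regions was 3.62 at day 8, 3.38 at day 9 and 3.19 at day 10. In lost regions it was -3.42, -3.28 and -3.23. With 1 library a day, a trend over days cannot be told apart from differences between libraries.

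**Figure D2:**
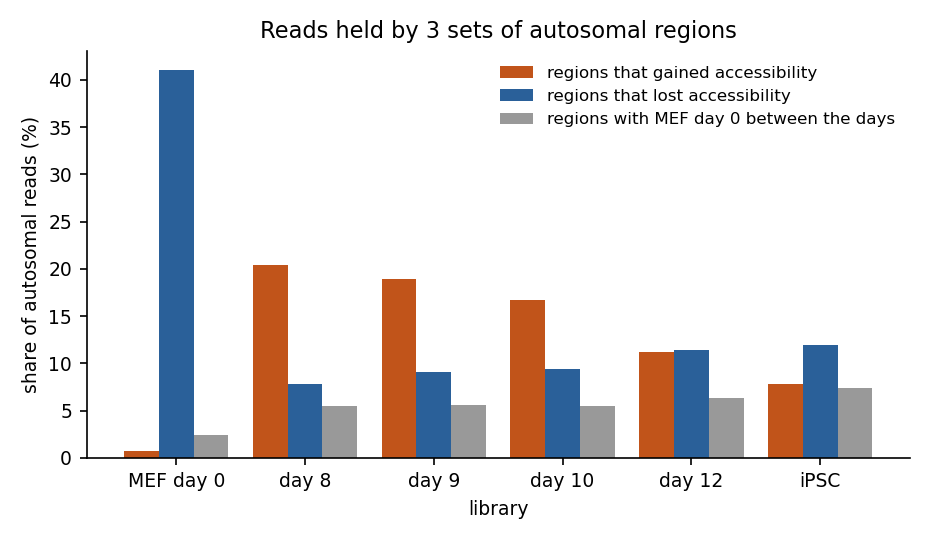
Share of autosomal reads (vertical axis, percent) in each of the 6 libraries (horizontal axis) that lay in the 20190 gained regions, the 33235 lost regions and the 24623 regions in which MEF day 0 lay between the intermediates. In MEF day 0 the lost regions hold 41.0% and the gained regions 0.740%, while at day 8 the gained regions hold 20.4% and the lost regions 7.80%.

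Day 12 and iPSC had no part in choosing the regions. Per the study's methods, iPSC came from picked ESC-like colonies that were passaged further without doxycycline and ascorbic acid. Picking, culture conditions and time thus differed together between iPSC and the intermediates and cannot be told apart. Gained regions held 11.2% of the autosomal reads at day 12 and 7.85% in iPSC, between the values of MEF day 0 and day 10. Of the 20190 gained regions, 14599 (72.3%) still had at least 50 normalised counts at day 12 and 8698 (43.1%) had them in iPSC. Over all autosomal regions the shares were 43.8% and 44.9%, so that the gained regions exceeded this background at day 12 and not in iPSC. On the log2 scale 56.1% of gained regions were nearer in iPSC to their MEF day 0 value than to their mean over days 8, 9 and 10. Lost regions held 11.4% of the reads at day 12 and 11.9% in iPSC, above their shares at days 8, 9 and 10. In iPSC their median was 5.12 on the log2 scale, against 5.40 for all autosomal regions, and 39.0% of them had at least 50 normalised counts. Of the lost regions 18.5% were nearer in iPSC to MEF day 0 than to the mean of the intermediates. This share and the 56.1% of gained regions are measured against values that chose the regions. Neither was computed for all autosomal regions or with equal sums, so that both are description only.

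How many regions gained and how many lost depended on the scaling between libraries. The profile of MEF day 0 was also more concentrated, with 12924 regions (5.92%) holding 50% of its autosomal reads, against 18681 to 21250 regions (8.56% to 9.74%) in the intermediates. Its size factor was 0.498, against 1.105 to 1.40 in the intermediates. After division by these factors its autosomal sum was 53636795 normalised counts, against 23047296 to 25655139. Scaling all 4 libraries to equal autosomal sums raised the intermediates against MEF day 0 by 1.06, 1.22 and 1.18 on the log2 scale at days 8, 9 and 10. All 3 intermediates were then above MEF day 0 in 133406 regions (61.1%) and below it in 61620 (28.2%). By the same fold and level rule 36097 regions gained (16.5%) and 13843 lost (6.34%), so that gains were 72.3% of all changes in place of 37.8%. The direction with more changes therefore differed between the scalings. The share of regions without all 3 days on 1 side was 11.3% with the authors' size factors, 10.6% with equal sums and 17.6% with quantile normalisation.

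Under all 5 scalings compared, 18041 regions (8.27%) gained and 10991 regions (5.04%) lost accessibility, which are called the core here. These were 89.4% of the gained and 33.1% of the lost regions. The core of lost regions had a median of 707 normalised counts in MEF day 0 and 24.4, 27.8 and 27.6 at days 8, 9 and 10. The core of gained regions had 14.1 in MEF day 0 and 203, 171 and 150. With regard to reads, the lost core held 18.5% of MEF day 0 and 1.42% to 1.78% of the intermediates, and the gained core held 0.686% of MEF day 0 and 16.01% to 19.6% of the intermediates.

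**Figure D3:**
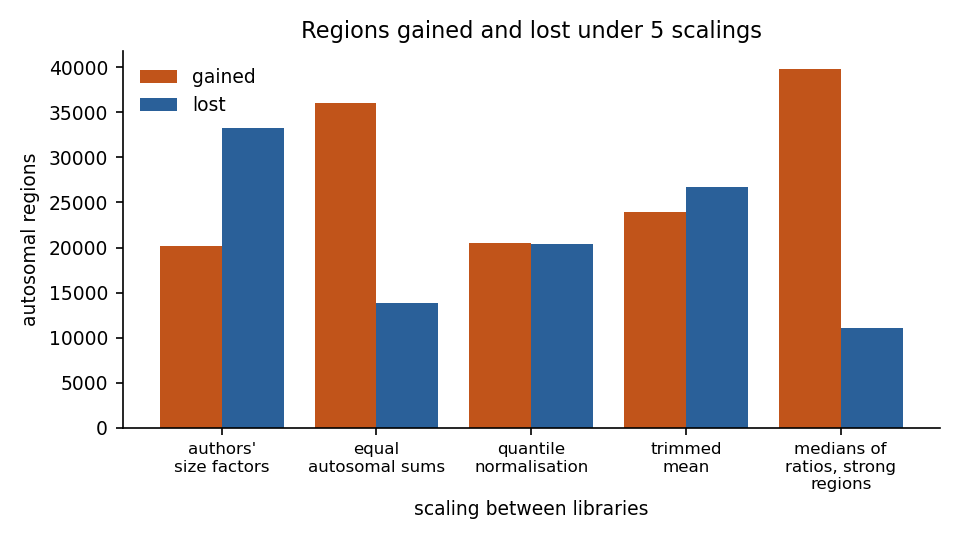
Number of autosomal regions that gained or lost accessibility (vertical axis) under 5 scalings of the 4 libraries (horizontal axis), from the same 4-fold and 50-count rule. Losses outnumber gains with the authors' size factors (33235 against 20190), both are nearly equal with quantile normalisation (20345 and 20549), and gains outnumber losses with equal autosomal sums (36097 against 13843).

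The strongest regions of MEFs and intermediates overlapped in part. Ranks within a library need no scaling. Of the 2182 strongest autosomal regions (1%) of MEF day 0, 54.9% were among the strongest 1% at day 8, 55.6% at day 9 and 59.4% at day 10. Between the intermediates this overlap was 85.2% to 87.6%. The regions of this MEF day 0 list that were outside the strongest 1% numbered 984 at day 8, 969 at day 9 and 886 at day 10. Their median lay at the 96.7 percentile at day 8, 97.0 at day 9 and 96.7 at day 10, and 46, 36 and 33 of them were below the median region. In the opposite direction, 1763 regions were among the strongest 1% on all 3 days, and 1126 of these (63.9%) also in MEF day 0. Only 22 of the 1763 were below the median region in MEF day 0.

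The 1126 regions that were strong in all 4 libraries form a set open in both states, and they show how the scaling acts. They held 8.33% of autosomal reads in MEF day 0, 7.29% at day 8, 6.72% at day 9 and 7.73% at day 10. With the authors' size factors 1125 of them were below MEF day 0 at all 3 days, with a median difference of -1.36. With equal sums the median difference was -0.21, and 751 were below and 115 above MEF day 0 at all 3 days. The rule for a loss was met by 5 of them with the authors' size factors and by 0 with equal sums.

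The strongest region of all 4 libraries was the one in row 218224 on chromosome 9, with 5560 reads in MEF day 0 and 6369, 6635 and 7558 reads at days 8, 9 and 10. In normalised counts it had 11165 in MEF day 0 and 5764, 4737 and 5969 in the intermediates, while with equal sums MEF day 0 lay between the days. Row 79698 on chromosome 15, with 4635, 4418, 4375 and 4835 reads, and row 178568 on chromosome 6, with 4304, 3994, 4146 and 4386, were also among the 5 strongest of both states. Row 177096 on chromosome 6, among the 5 strongest of the intermediates, had 3442, 3954, 4049 and 4503 reads. Reads in these regions were of the same order in MEFs and intermediates.

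The remaining regions at the top of either list were more particular. Row 34385 on chromosome 11, the second strongest of MEF day 0, had 5241 reads there and 3474, 3989 and 4672 in the intermediates. Row 105433 on chromosome 19, the third strongest of MEF day 0, fell from 4684 reads to 1367, 1286 and 1608. It was the only one of the 5 to meet the rule for a loss, being 8.33-fold lower in the intermediates (95% exact interval 7.99 to 8.68), and it missed the rule with equal sums, where its smallest difference was -1.71 on the log2 scale. Row 79101 on chromosome 15 went the other way, with 1584 reads in MEF day 0 and 4166, 4887 and 4582 in the intermediates. In normalised counts it was 1.14-fold higher (1.08 to 1.20), and with equal sums its smallest difference was 1.31 on the log2 scale.

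Losses were most frequent among regions of medium to high accessibility in MEFs. The level in MEF day 0 is itself part of the rule for a loss, so that the course over levels is partly set by it. Of the regions with 50 to 100 normalised counts in MEF day 0, 8.88% lost accessibility. The share was 25.5% from 100 to 200, 41.0% from 200 to 400, 56.8% from 400 to 800 and 55.3% from 800 to 1600 normalised counts. Above 1600 it fell to 37.3%. With equal sums the shares were lower but had the same course, from 3.17% in the lowest bin to 34.0% from 400 to 800 and 12.8% above 1600.

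Gains were most frequent among regions with 100 to 400 normalised counts on the lowest of the 3 days. Here too the level used for the bins is part of the rule, which partly sets the course. Binned by the lowest of the 3 days, 22.03% of the regions with 50 to 100 normalised counts gained accessibility, 29.3% from 100 to 200 and 29.8% from 200 to 400. The share then was 19.05% from 400 to 800, 9.37% from 800 to 1600 and 4.196% above 1600, where 12 of 286 regions gained. With equal sums it was 38.0%, 42.3%, 43.6%, 31.0%, 17.1% and 9.35%. Under either scaling, gains were thus least frequent among the most accessible regions of the intermediates.

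**Figure D4:**
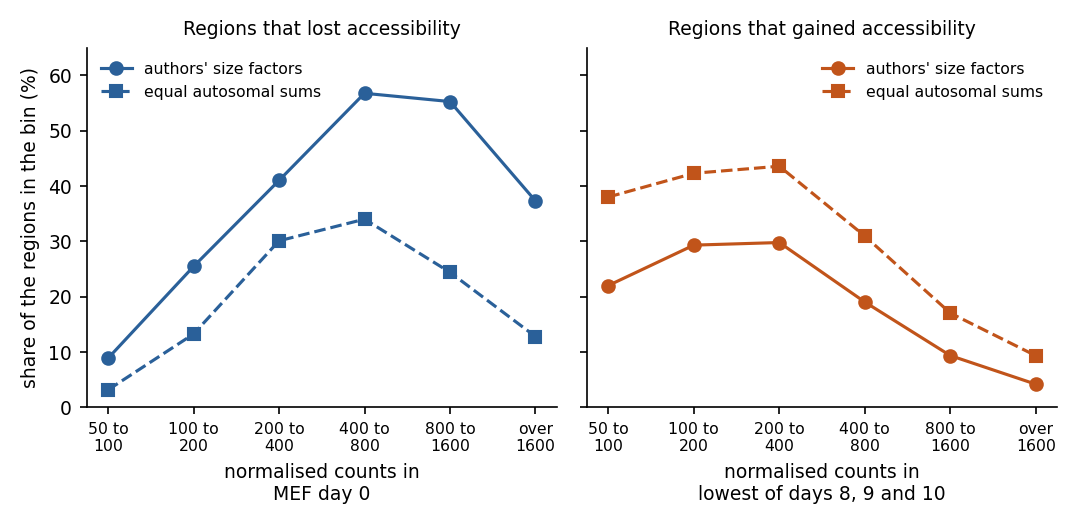
Share of regions (vertical axis, percent) that lost accessibility, by level in MEF day 0 (left), and that gained accessibility, by the lowest level of days 8, 9 and 10 (right), in bins of normalised counts, with the authors' size factors (solid) and equal autosomal sums (dashed). Losses are most frequent from 400 to 800 counts (56.8% and 34.0%) and gains from 200 to 400 counts (29.8% and 43.6%).

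With a level of 50 normalised counts taken as open, 53788 autosomal regions (24.6%) were open in MEF day 0 and on all 3 days. A further 33744 (15.5%) were open in MEF day 0 and on none of the days, and 28397 (13.0%) were open on all 3 days and not in MEF day 0. In 69173 regions (31.7%) none of the 4 libraries reached this level. The rest were open on 1 or 2 of the 3 days. There were 6792 and 6832 such regions among those open in MEF day 0 and 11165 and 8340 among the others. These counts use the authors' size factors and were not recomputed with equal sums. Whether more regions were open only in MEF day 0 or only in the intermediates can therefore depend on the scaling.

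A loss seldom meant the absence of reads, but this held for nearly all regions. Only 0.07% to 0.18% of autosomal regions were at the lowest value of 1 read in the intermediates. At day 8 lost regions had a median of 33 reads, against 50 over all autosomal regions. Lost regions kept a median of 10.1% of their MEF day 0 level in the mean of the intermediates, and the central 80% of them kept 3.24% to 18.5%. The 4-fold rule sets an upper limit on this share, so that only its spread below the limit is descriptive. Only 1111 of 33235 kept under 2%, and 109 under 1%. At day 8, 30.9% of the lost regions had at least 50 normalised counts, against 46.5% of all autosomal regions. The read numbers behind this were sufficient, with at least 20 reads on each of the 3 days in 67.3% of the lost regions. With equal sums the median kept was 22.6%. Residual accessibility, cells that had not changed and background reads in a region cannot be told apart in bulk samples.

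The 4-fold rule likewise limits the level of gained regions in MEF day 0. Their median level there was 8.81% of the mean of the intermediates, and 3.97% with equal sums. This value rests on few reads, as 4373 gained regions (21.7%) had 3 reads or fewer in MEF day 0 and 1490 (7.38%) were at the lowest value of 1 read, which can stand for 0 or 1. At larger thresholds, changes of at least 16-fold were found in 4610 gained and 6229 lost regions, of at least 32-fold in 1234 and 1712, of at least 64-fold in 228 and 204 and of at least 128-fold in 22 and 7. With equal sums the numbers at 16-fold were 12481 and 1299, and at 64-fold 1183 and 4.

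The 10 regions with the largest gains had 1 or 2 reads in MEF day 0 and 608 to 1857 reads in each intermediate. They lay on 6 chromosomes, with 3 on chromosome 13 and 3 on chromosome 15. The region in row 56671 on chromosome 13 had 1 read in MEF day 0 and 1167, 1236 and 1021 reads at days 8, 9 and 10, which in normalised counts is a 452-fold gain (exact 95% interval 81.1 to 17861). Row 75233 on chromosome 15 had 1 read against 984, 1176 and 1020, a 420-fold gain (75.3 to 16588). Where the single read stands for 0, the upper end of such an interval is unbounded. In both regions the 3 intermediates were close together, with an SD of 0.20 and 0.07 on the log2 scale.

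The gained regions with the largest differences had different later courses. The region in row 29937 on chromosome 11 had 2 reads in MEF day 0 and 1857, 1661 and 1309 in the intermediates, followed by 379 at day 12 and 16 in iPSC. Row 60717 on chromosome 13 had 1, 740, 648 and 615 reads, followed by 169 and 9. In normalised counts row 29937 had 4.02 in MEF day 0 and 20.1 in iPSC, and row 60717 had 2.01 and 11.3. In iPSC both were thus far below the intermediates. Both were also over 4-fold above MEF day 0, but this rests on 1 or 2 reads there and on the authors' size factors. Row 56671 had 754 reads at day 12 and 816 in iPSC. Row 26071 on chromosome 10, with 1, 706, 751 and 663 reads, was likewise high later, with 563 and 486. Row 117483 on chromosome 2 had 1, 632, 791 and 653 reads, and then 457 and 418.

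Among the other 5 of these 10, row 55495 on chromosome 13 had 1 read in MEF day 0 and 976, 730 and 769 in the intermediates. It had 119 reads in iPSC. Row 184319 on chromosome 7 had 1, 807, 824 and 615 reads, with 29 in iPSC. Rows 75250 and 71476 on chromosome 15 had 1, 770, 687 and 613 and 1, 851, 701 and 608 reads, with 36 and 54 in iPSC. All 4 were lower in iPSC than in any of the 3 intermediates. Row 75233 had 438 reads in iPSC.

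Among gained regions with at least 20 reads in MEF day 0, of which there were 2139, the fold could be measured more closely. Row 214112 on chromosome 9 had 22 reads in MEF day 0 and 2064, 2087 and 1841 in the intermediates, a 36.0-fold gain (23.7 to 57.4). Row 159564 on chromosome 5 had 27, 2390, 2081 and 1865 reads, a 31.0-fold gain (21.3 to 47.1). Rows 31538 and 32860 on chromosome 11 gained 30.0-fold (20.1 to 46.8) and 28.3-fold (19.2 to 43.8), and row 9000 on chromosome 1 27.1-fold (17.5 to 44.4). The counting intervals of these 5 regions overlapped. All 5 also met the rule with equal sums, as did all 20190 gained regions, because that scaling raises the intermediates against MEF day 0.

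The 10 regions with the largest losses lay on 10 chromosomes. They had 482 to 2547 reads in MEF day 0 and 4 to 36 reads in each intermediate. The region in row 196693 on chromosome 8 had 631 reads in MEF day 0 and 4 reads on each of the 3 days, a 398-fold loss (226 to 775). Row 121962 on chromosome 2 had 2547 reads against 29, 36 and 31, a 201-fold loss (164 to 249), and its 3 intermediates had an SD of 0.05 on the log2 scale. In each of these 10 regions MEF day 0 lay far above all 3 intermediates, and all 10 met the rule with equal sums as well. In iPSC they had 3 to 72 reads.

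The other 8 of the largest losses were between 132-fold and 226-fold. Row 53307 on chromosome 13 had 1164 reads in MEF day 0 and 10, 21 and 8 in the intermediates, a 226-fold loss (164 to 320). Row 171593 on chromosome 6 had 482, 6, 7 and 5 reads, and row 139743 on chromosome 3 had 1393, 20, 11 and 21, with a 203-fold loss each. Row 189707 on chromosome 7 had 1201, 17, 22 and 12 reads. In this group the 3 days differed from each other by few reads, and the SD reached 0.61 on the log2 scale in row 139743.

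Row 162060 on chromosome 5 had 632 reads in MEF day 0 and 9, 9 and 11 in the intermediates. Row 144691 on chromosome 4 had 1149, 20, 23 and 23 reads, a 132-fold loss (103 to 172). Row 11859 on chromosome 1 had 1534, 22, 35 and 15 reads, and row 17939 on chromosome 10 had 1145, 10, 26 and 23. Among the lost regions with at least 20 reads on each of the 3 days, rows 121962 and 144691 were joined by rows 129320, 202176 and 55851 on chromosomes 3, 8 and 13. These had 1900, 1884 and 1715 reads in MEF day 0 and 24 to 48 reads in each intermediate, with losses of 133-fold (110 to 163), 137-fold (113 to 169) and 131-fold (107 to 162).

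**Figure D5:**
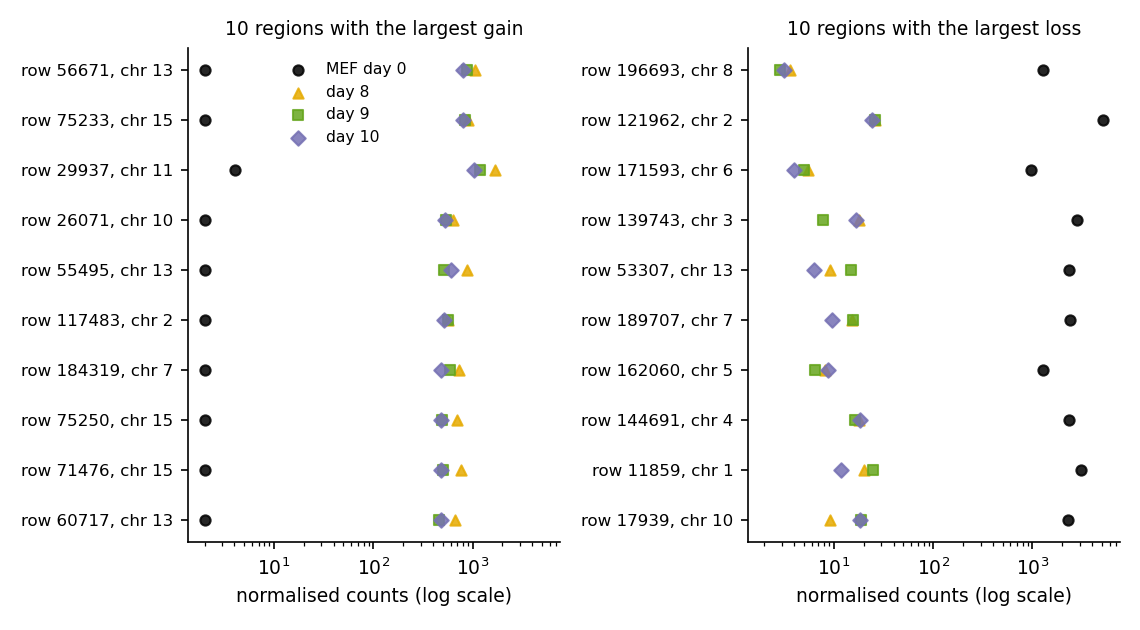
Normalised counts (horizontal axis, log scale) in MEF day 0 and at days 8, 9 and 10 for the 10 autosomal regions with the largest gain (left) and the 10 with the largest loss (right), named by row and chromosome. In each region the 3 intermediates lie together and far from MEF day 0. The 10 gained regions have 1 or 2 reads in MEF day 0, and the 10 lost regions have 482 to 2547.

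All 19 autosomes took part to a similar extent. The share of regions that gained accessibility was 8.35% on chromosome 8, the lowest, and 10.4% on chromosome 17, the highest, with a median of 9.29% over the 19 autosomes. The share that lost accessibility was 13.6% on chromosome 17 and 16.9% on chromosome 3, with a median of 15.5%. Chromosome 17 thus had both the highest share of gains and the lowest share of losses. Its median difference from MEF day 0 was 0.12 on the log2 scale, and that of chromosome 19, the lowest, was -0.18. With equal sums chromosome 17 again had the highest share of gains, at 18.4%. The lowest share of losses was then on chromosome 4, at 5.49%, against 5.65% on chromosome 17. Chromosomes of the same libraries are not replicates, and these differences were not tested.

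Changes in the same direction were found more often in adjacent rows of the table. The row after a gained region was itself gained in 17.5% of cases, against 9.25% of all regions, and lost in 9.56%, against 15.2%. The row after a lost region was lost in 24.2% of cases and gained in 5.83%. Across autosomal regions, the mean difference of a row and that of the next row had a Pearson r of 0.18, which was 0.12 at 2 rows apart, 0.06 at 10 and 0.00 at 100. Regions of the same libraries are not independent, and the distance between rows in bases was not given.

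Some stretches of rows changed as a block. The longest run of lost regions covered 13 rows on chromosome 5, from row 166335 to row 166347, which together had 6259 reads in MEF day 0 and 663, 1082 and 1127 at days 8, 9 and 10. Of these 13 regions 9 met the rule with equal sums. The longest runs of gained regions covered 8 rows each, from row 163222 to 163229 on chromosome 5 and from row 183063 to 183070 on chromosome 7. The first had 52 reads in MEF day 0 and 2131, 1887 and 1838 in the intermediates, and the second had 98 reads and 3058, 2663 and 2195. Both met the rule in full with equal sums, as every gained region did. Among windows of 50 rows, the one with the most losses ran from row 86332 to row 86381 on chromosome 16 and held 31 lost and 3 gained regions. The window with the most gains ran from row 38163 to row 38212 on chromosome 11 and held 24 gained regions and 1 lost region. These stretches were chosen after their values were seen.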

How the data were processed

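Per the labels and the study's methods, the authors ran ENCODE's pipeline for ATAC-seq on the paired-end reads, with GRCm38/mm10 as the genome, and used DiffBind (3.8) to count reads in 1 set of regions for all libraries. They divided these counts by DESeq2 (1.21.22) size factors and deposited log2 values, which were not split by allele. Here reads were recovered as whole steps of 2 to the power of the value minus 1 (100.0% of values within 0.001 of a whole number). The lowest recovered value was 1 read, so that 1 can stand for 0 or 1.

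Groups were taken from the time point labels, with 1 library each. No test was made. Column names were matched to sample titles, and differences were taken on the deposited log2 scale with a pseudocount of 1, which understates the change of low regions. Equal autosomal sums and the other scalings were brought to the geometric mean of the authors' size factors. Named regions were the 10 largest gains and 10 largest losses, the 5 largest of each with at least 20 reads in the less accessible state, the 5 strongest of each state and the regions nearest to the threshold. The regions compared, the rules and the lists were chosen with earlier results of these data known. Fold intervals are exact (Clopper-Pearson) on the reads of MEF day 0 and the summed reads of the 3 intermediates, and shares of reads have Wilson intervals. The calling step was run on simulated counts with 8-fold changes, counting error alone and known size factors. This does not test the scaling, the spread between libraries or changes near the threshold. The software was matplotlib 3.10.9, scipy 1.17.1, pandas 2.3.3 and numpy 2.4.6 under Python 3.11.15.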

Additional observations from a re-analysis of the deposited data

Results flagged for a closer look

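Y-linked regions were not part of the comparison, and the cells were female. The 8 Y-linked regions of the table nevertheless held 67.0 reads per 1000000 reads in regions in MEF day 0 (95% Wilson interval 64.02 to 70.2), and 183, 166 and 139 per 1000000 at days 8, 9 and 10. In MEF day 0 these were 1818 reads, while the lowest value of the table is 1 read, so that 8 regions cannot hold fewer than 8. Their source was not tested.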

How the results depend on the processing

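With equal autosomal sums, as given above, 61620 regions were below MEF day 0 at all 3 days, 36097 gained, 13843 lost and gains were 72.3% of changes. Medians of ratios over the 48968 regions with at least 50 reads in each library gave 144256 above, 52107 below, 39865 gained, 11053 lost and 78.3%. Quantile normalisation gave 38313 regions on both sides, 20345 lost and 50.2%, and the trimmed mean of M values 47.2%. With a mean of at least 20 reads, 16059 regions were on both sides. A 2-fold threshold gave 30302 gained, 63596 lost and 32.3%, and an 8-fold one 10681, 15830 and 40.3%. A level of 100 normalised counts gave 12497 gained and 28.8%, one of 20 counts 47.2%, and a pseudocount of 10 35.3%. The requirement of all 5 scalings, added after seeing the data, left 10991 lost regions. With regions called under equal sums, gained regions held 2.04%, 30.4%, 28.6% and 25.7% of the reads of MEF day 0 and days 8, 9 and 10, and lost regions 21.9%, 1.97%, 2.44% and 2.43%. Among the strongest 10%, MEF day 0 shared 49.9%, 51.9% and 55.0% with days 8, 9 and 10. Leaving out 1 of the 3 intermediates gave 99287 to 99904 regions above, 101297 to 103048 below and 15749 to 17601 on both sides, the lowest without day 10 and 15896 without day 8, since fewer days have to lie on 1 side. It gave 21261 to 24683 gained, 35279 to 36166 lost and 37.6% to 40.6% gains. Thinning the reads to the shallowest library left all these counts within 1.5 times. Of 195 recomputed differences of the 39 named regions, 125 moved by less than the SD over the 3 days, 70 moved by more and 0 of the called ones changed sign. No paired analysis was possible because each time point had 1 library and the labels gave no replicate numbers.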
